A study of Mus musculus with 30 samples.

Results

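The genes described are the 110 subunits and close partners of the oxidative phosphorylation complexes in mouse epiblast stem cells (EpiSCs) and in the definitive endoderm (DE) made from them. They were chosen by symbol: genes whose names begin with Nduf, Uqcr, Atp5 or Cox4 to Cox8, the Sdh genes a to d, and the mt-Nd, mt-Co, mt-Atp and mt-Cytb genes, without symbols that hold -ps. This took 110 of the 29555 gene identifiers of the RNA tables, 97 encoded in the nucleus and 13 in the mitochondrial genome. The nuclear members fell into 39 of complex I, 4 of complex II, 8 of complex III, 21 of complex IV, 17 of complex V and 8 complex I assembly factors (the Ndufaf genes). The mitochondrial members were 7 of complex I, 1 of complex III, 3 of complex IV and 2 of complex V. The study measured RNA by poly(A)-selected RNA-seq and open chromatin by ATAC-seq, to compare EpiSCs with DE and EpiSCs of several strains with each other.

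Per the labels, EpiSCs (passages p5-p10) came from strains C57BL/6 (B6), PWK/PhJ (PWK), B6.129 F1 (F1) and DBA/2J (DBA) and grew on feeder cells in N2B27-based medium with Fgf2, Activin A and NVP-TNKS656, which blocks Wnt signalling. They were lifted with collagenase to leave feeders behind. B6 DE was made from EpiSCs with CHIR99201 and Activin A for 16 h and then Activin A and LDN193189 for 24 h, while the labels also state 46 h in all, and CXCR4+ cells were sorted with magnetic beads. DE differed from EpiSCs in medium, feeders, lifting enzyme and sort as well as in cell state, and these cannot be told apart. RNA groups were 5 B6 EpiSC (replicates 1, 2, 4, 44 and 51), 4 B6 DE (2, 4, 44 and 51), 3 PWK EpiSC, 3 F1 EpiSC and 1 DBA EpiSC libraries. ATAC groups were 4 B6 EpiSC, 4 B6 DE, 2 PWK EpiSC and 1 DBA EpiSC libraries. The labels call the replicates biological without saying whether they are separate cultures or lines, so p-values measure the spread between these samples. In bulk RNA, fewer cells of a type and less RNA per cell cannot be told apart.

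Oxidative phosphorylation passes electrons from NADH (complex I) and succinate (complex II) through complex III to oxygen at complex IV, and the proton gradient so built drives ATP synthesis by complex V. Complexes I, III, IV and V each combine subunits of both genomes, whereas complex II is wholly nuclear. Mitochondrial genes are transcribed inside the organelle as long precursors, nuclear genes by the ordinary nuclear machinery, and several nuclear complex IV subunits exist as tissue-dependent isoforms.

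RNA libraries held 22829536 to 66563933 counts and ATAC libraries 3751526 to 9571127 counts in peaks. All 7 DE markers fixed for the check of the labels rose in DE, and their summed level was 156 to 347 CPM (counts relative to TMM-scaled library size) in B6 EpiSCs against 5881 to 12465 CPM in DE. Of 10 feeder fibroblast markers, 9 fell in DE, with summed levels of 81.3, 1226, 423, 1129 and 2835 CPM in EpiSC replicates 1, 2, 4, 44 and 51 and 249, 80.5, 78.7 and 90.6 CPM in DE replicates 2, 4, 44 and 51. Their part in the differences between EpiSCs and DE was not tested. Of 7 EpiSC markers, 4 fell (Pou5f1, Sox2, Nanog and Pou3f1) and 2 rose (Otx2 and Fgf5). DE replicate 2 stood apart from the other DE libraries in the nuclear members. The median nuclear member stood 1.54 above the EpiSC mean on the log2 scale in DE replicate 2, against 0.15, 0.22 and 0.53 in replicates 4, 44 and 51. Results that rest on DE replicate 2 are given with and without it below.

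Promoter sequences are shown for 4 members named in the accessibility and strain results below, as examples in which a factor-binding motif can be read. These examples do not stand for the other members. The sequences hold the 250 bases before the start site of the RefSeq annotation of GRCm38.p6, 5′ to 3′ on the gene's strand. All are of that reference build, and no PWK sequence was examined. Capitals mark matches on either strand to the NRF1 motif (GCGCA, any base, GCGC), the ETS motif CCGGAAGT, the YY1 motif AAGATGGCG or the CCAAT box. Atp5k (chr5:108434400-108434649, minus strand) had a lower transcript in 3 of 4 DE libraries and a more open promoter, Sdhd (chr9:50603850-50604099, minus strand) a higher transcript and a less open promoter, and Ndufaf3 (chr9:108567437-108567686, minus strand) a higher transcript and a more open promoter. Ndufaf4 (chr4:24897833-24898082, plus strand) had a lower transcript in PWK EpiSCs than in B6 EpiSCs.
Atp5k: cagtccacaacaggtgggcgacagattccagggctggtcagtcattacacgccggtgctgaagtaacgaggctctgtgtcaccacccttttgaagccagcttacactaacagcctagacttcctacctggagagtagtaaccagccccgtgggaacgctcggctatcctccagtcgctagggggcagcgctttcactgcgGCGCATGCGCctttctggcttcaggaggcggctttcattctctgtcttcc
Sdhd: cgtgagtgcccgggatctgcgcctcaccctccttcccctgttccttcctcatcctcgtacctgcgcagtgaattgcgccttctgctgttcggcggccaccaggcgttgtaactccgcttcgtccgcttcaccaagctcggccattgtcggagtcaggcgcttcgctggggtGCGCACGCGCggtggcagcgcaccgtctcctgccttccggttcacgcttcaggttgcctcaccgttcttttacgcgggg
Ndufaf3: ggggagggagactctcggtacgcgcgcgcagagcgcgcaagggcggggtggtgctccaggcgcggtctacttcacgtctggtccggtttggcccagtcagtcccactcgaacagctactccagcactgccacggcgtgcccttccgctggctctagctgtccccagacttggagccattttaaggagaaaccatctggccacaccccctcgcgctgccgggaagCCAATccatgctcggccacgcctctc
Ndufaf4: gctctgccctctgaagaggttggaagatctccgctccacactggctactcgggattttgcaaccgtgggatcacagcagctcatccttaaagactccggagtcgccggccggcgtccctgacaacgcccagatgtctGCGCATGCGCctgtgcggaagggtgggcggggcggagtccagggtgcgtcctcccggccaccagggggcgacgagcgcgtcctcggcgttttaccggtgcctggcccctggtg

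Across the RefSeq promoter table, 76 of the 97 nuclear members had a window, 81 windows of 300 bases in all (250 before to 50 after the start). The NRF1 motif, that of a factor known to act on many respiratory genes, was found in 24.7% of the members' windows and in 4.60% of all 32851 windows. Its matches fell in 19 members, of which 10 were among the 39 members with a window that rose in DE. The YY1 motif was found in 9.88% against 1.40% of all windows, the ETS motif in 6.17% against 3.89%, the CCAAT box in 43.2% against 37.4%, the GC box GGGGCGGGG in 16.0% against 11.4% and the TATA box TATAAA in 9.88% against 13.6%. Both strands were searched, and no match of 1 of these 6 motifs overlapped that of another in the members' windows. A match describes the letters only. In the sequences shown, the NRF1 match began 50 bases before the start site in Atp5k, 79 bases before in Sdhd and 113 bases before in Ndufaf4, and Ndufaf3 held 1 CCAAT box.

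Transcripts of the mitochondrial genome were lower in DE than in EpiSCs. Of 13 mitochondrial members, 10 fell and 1, mt-Nd6, passed the test as higher, at an adjusted p under 0.05 by the quasi-likelihood test of edgeR (p-values adjusted by Benjamini and Hochberg's method). The same test called 62% of the 14085 genes tested, 31.5% higher and 30.6% lower. The median log2 change of the 13 was -1.63, against -0.01 over all genes tested. Together the 13 genes took 2.63% to 3.10% of all counts in B6 EpiSCs (mean 2.85%, n = 5) and 0.82% to 1.00% in DE (mean 0.93%, n = 4), and the groups did not overlap. Their summed level was 25938, 28399.9, 27645, 30663 and 28516 CPM in EpiSC replicates 1, 2, 4, 44 and 51 and 10897, 8313, 9201 and 10203 CPM in DE replicates 2, 4, 44 and 51, the order kept for all values that follow. Here DE replicate 2 stood with the other DE libraries.

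**Figure D1:**
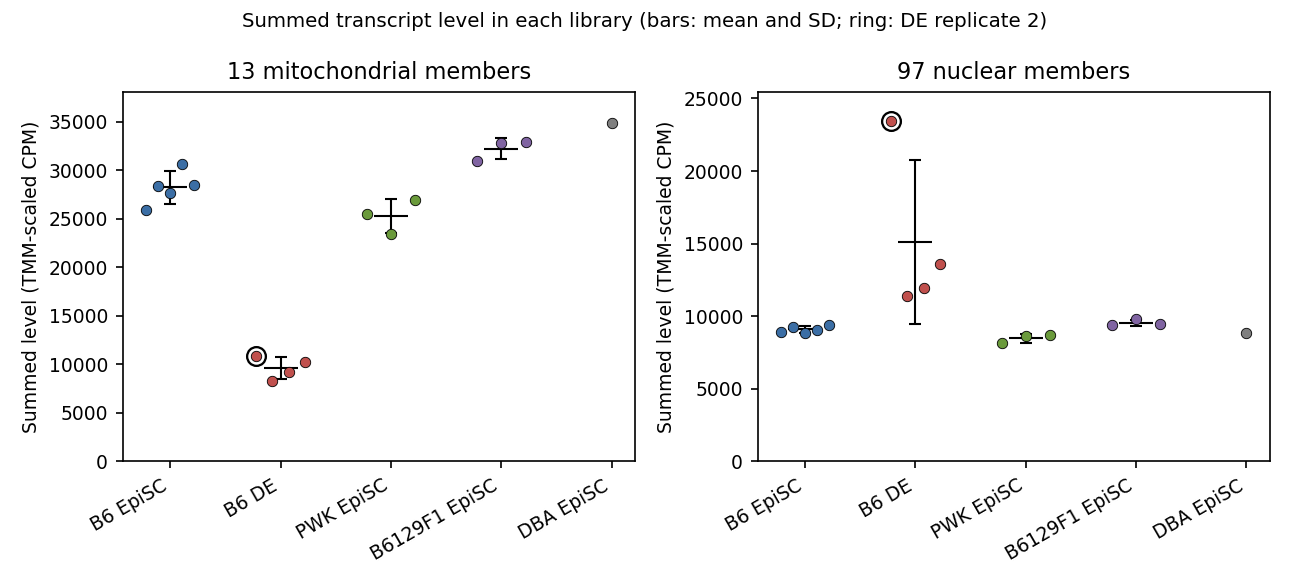
Summed TMM-scaled CPM (y axis) of the 13 mitochondrial members (left) and the 97 nuclear members (right) in each library by group (x axis), points being libraries, bars the mean and SD, and the ring DE replicate 2. All 4 DE libraries lie below every EpiSC library for the mitochondrial members and above every EpiSC library for the nuclear members, where DE replicate 2 is far above the other DE libraries.

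The mitochondrial subunits of complex IV did not move alike. mt-Co1 (MT:5328-6872), the catalytic core, stood at 9555, 9470.2, 11254, 11371 and 9587 CPM in EpiSCs and 2004, 1948, 2128 and 2215 CPM in DE. No DE library came near the EpiSC libraries, and the fitted change was -2.28 ± 0.13 (SE, log2), a 4.84-fold lower level with edgeR adjusted p = 7.25e-07. mt-Co2 (MT:7013-7696), which carries the copper site that takes electrons from cytochrome c, stood at 1730.4, 1021, 979, 1014 and 729 CPM in EpiSCs and 1401, 586, 677 and 776 CPM in DE. The groups overlapped, EpiSC replicate 1 and DE replicate 2 being the highest of their groups, and the change of -0.30 ± 0.31 did not pass (edgeR adjusted p = 0.416). mt-Co3 (MT:8607-9390), the other core subunit, stood at 1655, 1398, 1526, 1684 and 1675 and 1824, 875, 1203 and 1167 CPM, with DE replicate 2 above every EpiSC library and the other DE libraries below all of them. Its change of -0.28 ± 0.21 did not pass either (edgeR adjusted p = 0.250). Without DE replicate 2, mt-Co2 and mt-Co3 were both called lower, at -0.67 (edgeR adjusted p = 0.0410) and -0.53 (edgeR adjusted p = 0.00481).

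Of the complex I genes, 6 of 7 fell. mt-Nd1 (MT:2751-3707), at the joint of the membrane arm and the peripheral arm, went from 2694 ± 340.3 (SD, n = 5) to 945 ± 116 (SD, n = 4) CPM, a log2 change of -1.48 ± 0.15 (edgeR adjusted p = 1.88e-05). The proton-pumping subunits mt-Nd2, mt-Nd4 and mt-Nd5 changed by -2.51 ± 0.23, -1.84 ± 0.16 and -1.63 ± 0.13 (edgeR adjusted p = 1.05e-05, 6.93e-06 and 4.46e-06). mt-Nd3 and mt-Nd4l, small membrane subunits, stood at 136, 72.0, 132, 146 and 168 and 326, 440.0, 344, 439 and 421 CPM in EpiSCs. In DE mt-Nd3 stood at 17.5, 19.3, 30.7 and 36.0 CPM and mt-Nd4l at 34.9, 16.0, 18.7 and 20.6 CPM. Neither overlapped between groups, and the changes were -2.31 ± 0.29 and -4.09 ± 0.28 (edgeR adjusted p = 7.94e-05 and 1.66e-06).

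mt-Nd6 (MT:13552-14070), the only protein gene of the mitochondrial light strand, went the other way. It stood at 41.8, 73.8, 68.3, 98.4 and 41.6 CPM in EpiSCs and 205, 82.7, 80.1 and 124 CPM in DE, so that DE replicates 4 and 44 lay below EpiSC replicate 44. The change was 0.97 ± 0.35 (edgeR adjusted p = 0.0333). The call was lost without DE replicate 2 (log2 0.58, edgeR adjusted p = 0.119) and without EpiSC replicate 1, 2, 4 or 51 or DE replicate 51, where edgeR adjusted p was 0.0502 to 0.0716. Its 3′ end overlaps that of mt-Nd5 (MT:11742-13565) on the opposite strand, and whether strand was used in counting is not given in the sources used here, so reads of both cannot be told apart there.

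mt-Cytb (MT:14145-15288), the heme-bearing core of complex III, fell by 1.08 ± 0.13 on the log2 scale, from 3343 ± 311 (SD, n = 5) to 1555 ± 213 (SD, n = 4) CPM (edgeR adjusted p = 5.66e-05). The complex V pair mt-Atp8 (MT:7766-7969) and mt-Atp6 (MT:7927-8607) overlap and share 1 messenger RNA, as do mt-Nd4l (MT:9877-10173) and mt-Nd4 (MT:10167-11544). mt-Atp6, which forms the proton channel, stood at 1781, 2846, 2412, 2599.9 and 2491 CPM in EpiSCs and 1589.9, 1137, 1022 and 1384 CPM in DE. mt-Atp8, a short structural subunit, stood at 552, 669, 647, 704 and 692 and 39.5, 28.0, 44.1 and 34.5 CPM. Both fell in every DE library, by 1.85-fold for mt-Atp6 (log2 -0.88 ± 0.19, edgeR adjusted p = 0.00200) and 17.5-fold for mt-Atp8 (log2 -4.13 ± 0.19, edgeR adjusted p = 3.37e-07). In both pairs the upstream gene of the shared messenger changed more than the downstream one. The upstream genes are also the shortest members of the mitochondrial genome, at 204 and 297 bases, and how reads over both genes were assigned is not stated.

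Per kilobase of gene, the levels in B6 EpiSCs ran, in mean CPM per kb (n = 5), mt-Co1 (6633), mt-Atp6 (3562), mt-Atp8 (3199), mt-Cytb (2922), mt-Nd1 (2815), mt-Co3 (2025), mt-Nd4 (1668), mt-Co2 (1601), mt-Nd2 (1419), mt-Nd4l (1326), mt-Nd5 (1001), mt-Nd3 (376), mt-Nd6 (125). In DE (n = 4) the order was mt-Atp6 (1884), mt-Co3 (1617), mt-Cytb (1359), mt-Co1 (1342), mt-Co2 (1258), mt-Nd1 (987), mt-Nd4 (458), mt-Nd5 (317), mt-Nd2 (243), mt-Nd6 (237), mt-Atp8 (179), mt-Nd4l (75.9), mt-Nd3 (74.4). mt-Co1 was thus far above the rest in EpiSCs, and in DE it stood among 3 others within 856 to 2327 CPM per kb over libraries, namely mt-Co3, mt-Cytb and mt-Co2, with overlapping ranges. In EpiSCs mt-Atp6, mt-Atp8, mt-Cytb and mt-Nd1 also had overlapping ranges (2377 to 4179 CPM per kb).

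**Figure D2:**
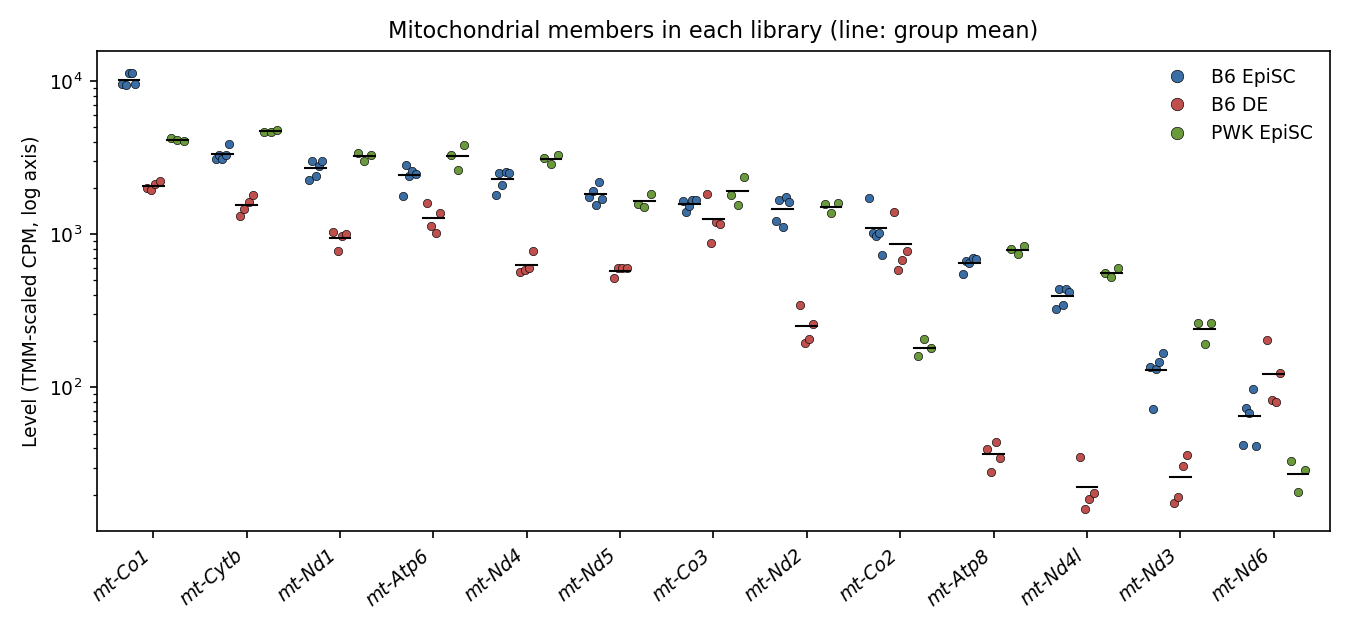
Level of each mitochondrial member (TMM-scaled CPM, logarithmic y axis) in every B6 EpiSC, B6 DE and PWK EpiSC library, points being libraries and lines group means. B6 DE lies below B6 EpiSC without overlap for 10 of 13 genes, mt-Atp8 and mt-Nd4l being furthest apart, while PWK EpiSC is far below B6 EpiSC for mt-Co1 and mt-Co2.

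Nuclear chromosomes hold near-identical copies of stretches of the mitochondrial genome, and reads from either source can be counted for the other, so the values of single mitochondrial genes are uncertain to that extent. The gene tables hold 9 such gene models, chosen after their values were seen. Their summed level was 4078, 4825, 5641, 5769.6 and 6056 CPM in B6 EpiSCs and 2962, 1316, 1748 and 1761 CPM in DE, also without overlap. Gm28661, 1 of these, stood at 1018, 2148, 2473, 2532 and 2750.2 CPM and 269.8, 69.3, 106 and 134 CPM. With the copies added, the mitochondrial share was 3.38% of counts in B6 EpiSCs and 1.12% in DE (means), and the sums remained apart, at 30016 to 36432 CPM against 9628 to 13859 CPM.

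Nuclear members rose more often than they fell. Of 90 nuclear members tested, 48 rose and 3 fell in DE, with a median log2 change of 0.81 against -0.01 over all genes tested. The shares of all genes called higher and lower, 31.5% and 30.6%, are the background for these counts. Without DE replicate 2 the counts were 42 higher and 13 lower and the median 0.32, where 31.6% and 31.8% of all genes were called higher and lower. These shares, with and without that library, are also the background for the counts by complex below. Of the 48 members called higher, 42 were called in both fits, 6 were lost, and 10 members were called lower only without that library. The groups did not overlap in 44 nuclear members, where 55.2% of all genes tested did not. The summed level was 8892, 9228, 8863, 9083 and 9385 CPM in EpiSCs and 23462, 11401, 11943 and 13592 CPM in DE. The ratio of the nuclear to the mitochondrial sum was 0.30 to 0.34 over EpiSC libraries and 1.30 to 2.15 over DE libraries. The 7 nuclear members that were not tested (Cox4i2, Cox6a2, Cox7b2, Cox8b, Cox8c, Ndufa11b and Ndufs6b) were below 0.5 CPM in every B6 library.

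**Figure D3:**
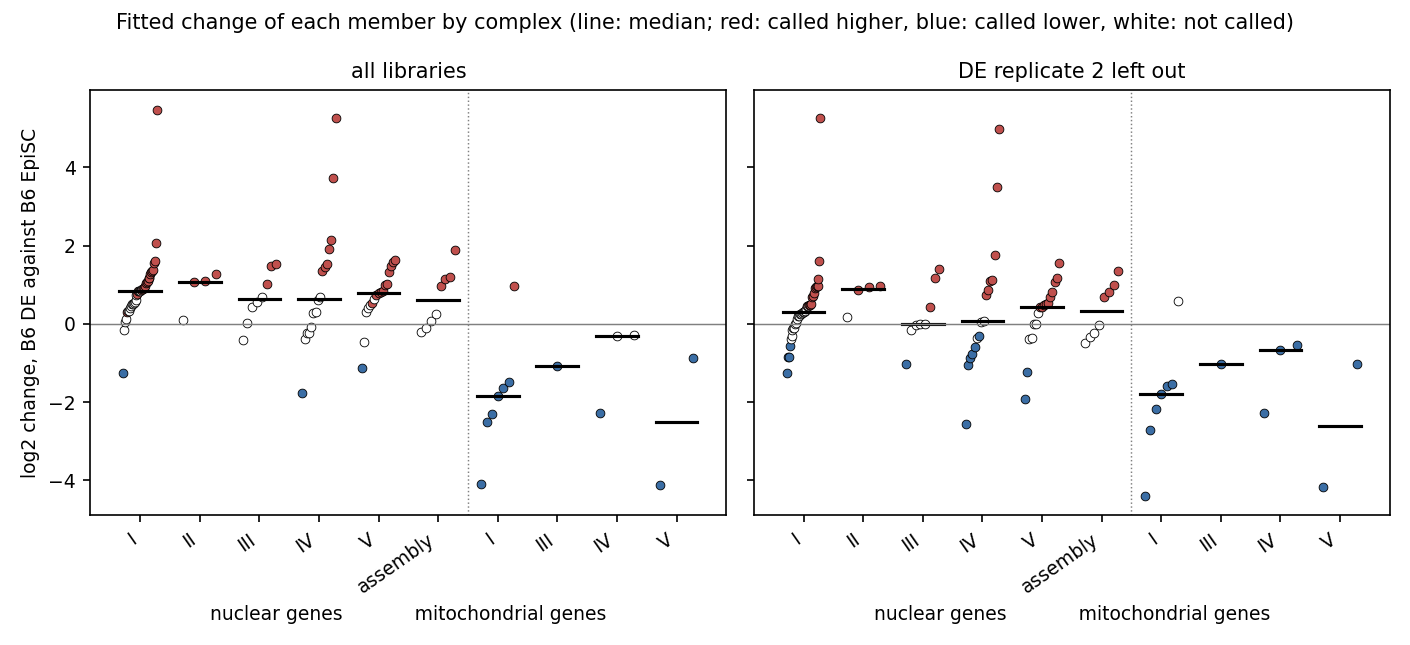
Fitted log2 change in B6 DE against B6 EpiSC (y axis) of each tested member by genome and complex (x axis), with all libraries (left) and with DE replicate 2 left out (right), red and blue points being called higher and lower, white points not called and lines class medians. The nuclear medians lie between 0.60 and 1.07 on the left and between 0.00 and 0.90 on the right, and the mitochondrial medians are below 0 in both.

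In complex I, 20 of 37 tested nuclear members rose and 1 fell (15 and 4 without DE replicate 2). All 7 core subunits, which hold the flavin, the iron-sulfur clusters and the quinone site, rose, with changes of 0.31 to 2.08 (0.32 to 1.61 without DE replicate 2, when all 7 were still called). Among the other 30, 13 rose and 1 fell with all libraries, and 8 rose and 4 fell without DE replicate 2. This split into core and accessory subunits was made after the values were seen. Among the core subunits, Ndufs8 was listed at a low level in EpiSCs, which makes its change uncertain. Ndufs7, which carries the last iron-sulfur cluster before the quinone, stood at 23.0, 38.8, 37.1, 38.2 and 41.1 CPM in EpiSCs and 262, 86.6, 104 and 131 CPM in DE. DE replicate 2 was the highest and all DE libraries were above all EpiSC libraries. The change was 2.08 ± 0.33 (edgeR adjusted p = 3.37e-04), and 1.61 without DE replicate 2 (edgeR adjusted p = 1.46e-04).

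Ndufv1, the flavin subunit that takes electrons from NADH, rose by 1.17 ± 0.19 (edgeR adjusted p = 4.16e-04). Ndufs1, the largest of the peripheral arm, rose least, by 0.31 ± 0.11 (edgeR adjusted p = 0.0276). Its call was lost without EpiSC replicate 4, 44 or 51 or DE replicate 44 or 51, at edgeR adjusted p of up to 0.0753. Ndufab1, the acyl carrier protein that also serves fatty acid synthesis, stood at 66.5, 73.9, 70.1, 70.8 and 77.8 CPM in EpiSCs and 349, 134, 143 and 189 CPM in DE. These groups were far apart, and the change was 1.55 ± 0.27 (edgeR adjusted p = 6.47e-04), and 1.13 without DE replicate 2. Ndufs4, an accessory subunit of the NADH-binding part, was the member of complex I that fell, from 17.3, 22.5, 24.0, 23.3 and 23.5 CPM to 9.26, 9.45, 7.90 and 9.97 CPM. Here DE replicate 2 stood among the other DE libraries, and the change was -1.25 ± 0.18 (edgeR adjusted p = 1.69e-04), with -1.26 when it was left out.

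The small accessory subunits Ndufa1, Ndufa5 and Ndufa13 turned on DE replicate 2. Ndufa13 stood at 46.1, 64, 78.3, 73.2 and 73.0 CPM in EpiSCs and 157, 36.9, 45.6 and 28.6 CPM in DE, that is, DE replicate 2 was above and the other 3 DE libraries were below every EpiSC library. The fitted change was 0.06 ± 0.47 with all libraries (edgeR adjusted p = 0.923) and -0.84 without DE replicate 2 (edgeR adjusted p = 0.00759). Ndufa1 changed from 0.13 to -0.57 (edgeR adjusted p = 0.0123) and Ndufa5 from -0.16 to -0.84 (edgeR adjusted p = 0.00252) in the same way. Ndufa9, an accessory subunit near the quinone site, was listed at 13.9, 8.49, 0, 0 and 3.39 CPM in EpiSCs and 302, 177, 188 and 207 CPM in DE. It was called higher (edgeR adjusted p = 0.00278), but 2 EpiSC libraries held no count of a gene that every respiring cell uses, so its EpiSC level is uncertain and no fold is given.

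**Figure D4:**
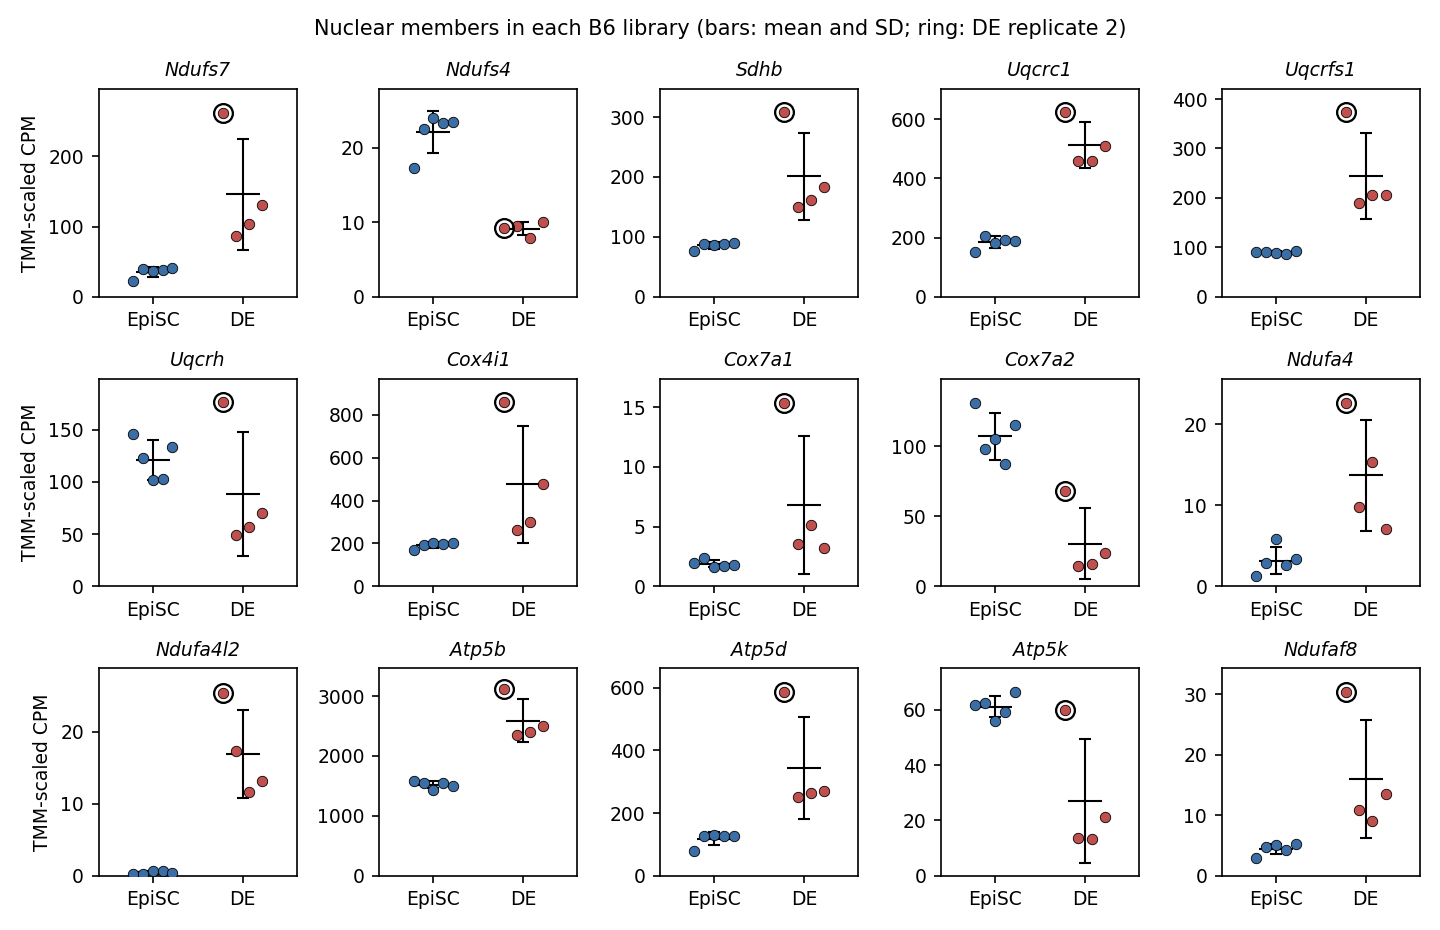
Level (TMM-scaled CPM, y axis from 0) of 15 nuclear members in each B6 EpiSC and B6 DE library, points being libraries, bars the mean and SD, and the ring DE replicate 2. The ringed library is the highest DE library in every panel but Ndufs4, and Ndufs4, Uqcrh, Cox7a2 and Atp5k have at least 3 DE libraries below all EpiSC libraries.

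Complex II, which oxidises succinate and belongs to the citric acid cycle too, had 4 members, of which 3 rose with and without DE replicate 2. Sdhb, the iron-sulfur subunit, stood at 76.0, 87.9, 85.7, 88.3 and 89.6 CPM in EpiSCs and 309, 149, 162 and 183 CPM in DE, without overlap. It changed by 1.27 ± 0.22 (edgeR adjusted p = 5.61e-04), or 0.97 without DE replicate 2, and the membrane anchors Sdhc and Sdhd by 1.08 ± 0.15 (edgeR adjusted p = 1.32e-04) and 1.06 ± 0.20 (edgeR adjusted p = 8.52e-04). Sdha, the flavin-bearing catalytic subunit, stood at 319.8, 309.9, 290.1, 307 and 311 and 267, 325, 348 and 349.9 CPM, the groups overlapping, with a change of 0.10 ± 0.11 (edgeR adjusted p = 0.469).

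In complex III, 3 of 8 nuclear members rose with and without DE replicate 2, where 31.5% and 31.6% of all genes did. Uqcrc1, a core subunit on the matrix side, stood at 152, 205, 183, 192 and 188 CPM in EpiSCs and 625, 459, 459 and 509 CPM in DE. It rose by 1.51 ± 0.15 (edgeR adjusted p = 1.63e-05), while its partner core subunit Uqcrc2 had a change of 0.02 ± 0.11 (edgeR adjusted p = 0.884) with means of 185 ± 17.3 (SD, n = 5) and 184 ± 5.20 (SD, n = 4) CPM. Uqcrfs1, the Rieske iron-sulfur protein, stood at 89.9, 89.9, 87.4, 87.2 and 93.3 and 374, 189.5, 206 and 207 CPM, a change of 1.49 ± 0.21 (edgeR adjusted p = 1.62e-04), and of 1.18 without DE replicate 2. All 4 DE libraries were above all EpiSC libraries in Uqcrc1 and Uqcrfs1. Uqcrh, the hinge protein that helps cytochrome c dock, stood at 146, 123, 101, 103 and 133 CPM in EpiSCs and 176, 49.4, 56.6 and 70.0 CPM in DE. Its change of -0.41 ± 0.36 did not pass (edgeR adjusted p = 0.344), and without DE replicate 2 it was -1.03 (edgeR adjusted p = 5.61e-04).

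In complex IV, 7 of 16 tested nuclear members rose and 1 fell, where 31.5% and 30.6% of all genes did. Without DE replicate 2 the counts were 7 and 6, where the shares of all genes were 31.6% and 31.8%. Of those that rose, Ndufa4l2 and Cox6c2 were near the floor of counts in EpiSCs, so that a call lower was hardly possible. The summed level of the 21 nuclear members of complex IV was 1263, 1261, 1310.1, 1295 and 1359 CPM in EpiSCs and 3627, 1127, 1213 and 1653 CPM in DE, with 2 DE libraries below and 2 above every EpiSC library. The sums of complexes I, II, III and V had no overlap between groups. Cox4i1, the main isoform of the largest nuclear subunit, stood at 170.2, 190.2, 203, 199 and 201 CPM in EpiSCs and 861, 263, 299 and 479 CPM in DE. The change was 1.35 ± 0.32 (edgeR adjusted p = 0.00403), and 0.87 without DE replicate 2 (edgeR adjusted p = 0.00276). Cox4i1 lies on chromosome 8, where the median of 713 genes in DE replicate 51, relative to the other DE libraries, was 0.49 higher than that of the other genes (log2), against -0.13 to -0.16 in DE replicates 2, 4 and 44. Without DE replicate 51 the change was 1.36. Ndufa13 and Ndufb7 are the other nuclear members on that chromosome.

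Isoforms of 1 subunit moved apart. Cox7a1, the isoform known from heart and skeletal muscle, stood at 1.92, 2.40, 1.65, 1.65 and 1.77 CPM in EpiSCs and 15.4, 3.57, 5.11 and 3.18 CPM in DE and rose by 1.91 ± 0.50 (edgeR adjusted p = 0.00715). Cox7a2, the isoform known from liver and most other tissues, stood at 131, 98.0, 105, 87.1 and 116 and 67.9, 14.6, 15.8 and 23.6 CPM and fell by 1.76 ± 0.45 (edgeR adjusted p = 0.00590). Both had no overlap between groups, and DE replicate 2 was the highest DE library in each. Without it the changes were 1.09 (edgeR adjusted p = 0.0178) and -2.55 (edgeR adjusted p = 1.17e-05).

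Ndufa4, a complex IV subunit despite its name, stood at 1.22, 2.87, 5.77, 2.64 and 3.35 CPM in EpiSCs and 22.6, 9.74, 15.4 and 7.04 CPM in DE. Its paralog Ndufa4l2, known as a target of the hypoxia-inducible factor, stood at 0.275, 0.236, 0.717, 0.660 and 0.339 CPM and 25.4, 17.3, 11.6 and 13.2 CPM. No DE library overlapped the EpiSC libraries in either gene. Ndufa4 was listed far below Cox4i1 in the same libraries, for a reason that was not tested, so its level is uncertain. The changes were 2.14 ± 0.48 for Ndufa4 (edgeR adjusted p = 0.00288) and 5.25 ± 0.45 for Ndufa4l2 (edgeR adjusted p = 6.85e-06). Without DE replicate 2 they were 1.77 and 4.97. Ndufa4l2 had at most 0.717 CPM in EpiSCs, near the floor of counts, so no fold is given.

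Of the other complex IV members, Cox5a, a peripheral subunit on the matrix side, and the widely expressed Cox6a1 rose by 1.52 ± 0.27 (edgeR adjusted p = 6.85e-04) and 1.45 ± 0.39 (edgeR adjusted p = 0.00793), and by 1.12 and 0.75 without DE replicate 2. Cox6c2, which passed as higher too, stayed below 1 CPM in every B6 library. Cox5b, Cox7a2l, Cox7b, Cox7c and Cox6b2 were called lower only without DE replicate 2, at -0.31, -0.60, -0.87, -0.78 and -1.06. With all libraries their changes were 0.31, -0.23, -0.22, -0.07 and -0.39, and Cox6b1, on the intermembrane side, and Cox8a, a small membrane subunit, had 0.27 ± 0.36 (edgeR adjusted p = 0.534) and 0.60 ± 0.32 (edgeR adjusted p = 0.125).

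In complex V, 11 of 17 members rose and 1 fell (10 and 2 without DE replicate 2). The catalytic subunits Atp5b (beta) and Atp5a1 (alpha) rose by 0.80 ± 0.13 (edgeR adjusted p = 3.54e-04) and 0.52 ± 0.12 (edgeR adjusted p = 0.00348). Atp5b stood at 1588, 1544, 1433, 1542 and 1499 CPM in EpiSCs and 3117, 2342, 2404 and 2496 CPM in DE, every DE library being above every EpiSC library. Atp5d, the delta subunit of the rotating stalk, stood at 79.2, 128, 131, 127 and 127 and 587, 253, 263 and 272 CPM, a change of 1.58 ± 0.29 (edgeR adjusted p = 8.33e-04), and of 1.16 without DE replicate 2.

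The 3 genes of the proton-turned ring subunit c, Atp5g1, Atp5g2 and Atp5g3, encode the same mature protein. They changed by 0.75 ± 0.30 (edgeR adjusted p = 0.0490), 1.48 ± 0.30 (edgeR adjusted p = 0.00140) and 1.31 ± 0.31 (edgeR adjusted p = 0.00361). Without DE replicate 2, Atp5g2 and Atp5g3 were still called, at 1.06 and 0.81, and Atp5g1 was not (0.28, edgeR adjusted p = 0.135). Atp5g1 also lost its call without any 1 EpiSC library or without DE replicate 51, at edgeR adjusted p of up to 0.101.

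The small membrane subunits of complex V went differently. Atp5k (subunit e), which helps dimers form, stood at 61.6, 62.6, 56.2, 59.4 and 66.3 CPM in EpiSCs and 60.1, 13.5, 13.3 and 21.2 CPM in DE. DE replicate 2 lay among the EpiSC libraries and the other 3 DE libraries far below them. The change was -1.13 ± 0.43 with all libraries (edgeR adjusted p = 0.0411) and -1.91 without DE replicate 2 (edgeR adjusted p = 2.38e-05), and omission of any other single library ended the call (edgeR adjusted p = 0.0591 to 0.0993). Atp5l (subunit g), its neighbour in the complex, stood at 86.6, 101, 92.8, 98.9 and 108 and 153, 30.4, 38.2 and 53.4 CPM, a change of -0.46 ± 0.43 (edgeR adjusted p = 0.373) and of -1.24 without DE replicate 2 (edgeR adjusted p = 3.38e-04).

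Of the 8 Ndufaf assembly factors, 4 rose with and without DE replicate 2. Ndufaf8 stood at 2.94, 4.76, 5.02, 4.19 and 5.16 CPM in EpiSCs and 30.3, 10.9, 9.08 and 13.5 CPM in DE and rose by 1.90 ± 0.38 (edgeR adjusted p = 0.00155), and by 1.36 without DE replicate 2. Ndufaf3, which acts early with Ndufaf4, rose by 1.20 ± 0.32 (edgeR adjusted p = 0.00830), Ndufaf1, a membrane-arm factor, by 1.15 ± 0.17 (edgeR adjusted p = 1.98e-04) and Ndufaf7, a methyltransferase, by 0.96 ± 0.21 (edgeR adjusted p = 0.00270). The other 4 had changes of -0.20 (Ndufaf5) to 0.24 (Ndufaf6).

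Genes outside the members that serve the same complexes were counted in lists. Of all genes tested, 62% were called, the background for these counts. The share called was 51.3% of the other assembly factors and 59.7% of the mitochondrial ribosomal proteins. It was 80% of the electron carriers with Cyc1 and 37.5% of the genes that copy or transcribe the mitochondrial genome. Of 39 other assembly factors, 18 rose and 2 fell, among them Cox14 and Cox11 for complex IV (1.98 and 1.86), the same counts as without DE replicate 2. Of 77 mitochondrial ribosomal proteins, which translate the 13 mitochondrial messengers, 45 rose and 1 fell, with a median of 0.62 (37, 4 and 0.33 without DE replicate 2). Of 5 genes for electron carriers and for cytochrome c1 of complex III, 4 rose, Cyc1 (1.57), Etfa (2.09), Etfb (1.67) and Etfdh (1.36), and cytochrome c itself, Cycs, had a change of 0.40. Of 16 genes that copy or transcribe the mitochondrial genome, 4 rose, including the polymerase Polg (1.16) and the elongation factor Tefm (0.96), and 2 fell, the helicase Twnk (-1.01) and the ribosomal RNA methyltransferase Tfb1m (-0.94). The packaging and activation factor Tfam had a change of -0.28 ± 0.18 and the RNA polymerase Polrmt of 0.39 ± 0.22, and neither passed. Without DE replicate 2, Tfam was called lower (-0.48 ± 0.12, edgeR adjusted p = 0.00734).

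Of 15 genes of mitochondrial RNA processing and stability, 4 rose and 3 fell (4 and 4 without DE replicate 2, when Slirp, the partner of Lrpprc, was also called lower). The 3 that fell with all libraries were Tbrg4 (-1.83) and Fastkd1 (-1.82), both of the FASTK family, and Lrpprc (-0.53), which holds mitochondrial messengers stable. Of 10 regulators of nuclear respiratory genes, 6 fell, with a median of -0.94. These were Yy1 (-1.92), Gabpa (-0.85), Gabpb2 (-1.82), Pprc1 (-1.03), Ppargc1b (-3.00) and Ppard (-4.04), while Nrf1 had 0.25 ± 0.13, which did not pass. Without DE replicate 2, 6 were again called lower and 2 were called higher, Nrf1 at 0.33 ± 0.10 (edgeR adjusted p = 0.0206) and Hif1a at 0.37 ± 0.09 (edgeR adjusted p = 0.00739), with a median of -0.76. RNA processing genes were called in 46.7% and regulators in 60%, where 62% of all genes were called. Without DE replicate 2 these shares were 53.3%, 80% and 63.3%. The lists' medians describe these libraries and were given no test of their own.

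Open chromatin at most of the members' starts was not called changed. Peaks were joined to a member within 1 kb of its start (76 members) or within 2 kb of either end (21 members with no start in the table). This gave 148 peaks at 91 members, of which 137 were tested, and 17 were more and 9 less open in DE, with a median log2 change of -0.03. Over all 113870 peaks tested, 57.6% were called (32.6% more and 25% less open), and over the 19670 peaks within 1 kb of any start 31.1% (15.6% and 15.5%). The split depended on scaling: with total library size it was 11 more and 29 less open, where the median of all peaks moved to -0.22. Less open peaks numbered 14 without EpiSC replicate 1, 16 without EpiSC replicate 4, 22 without EpiSC replicate 51 and 19 without DE replicate 2. The groups did not overlap in 27 peaks at members, where 53.7% of all peaks did not. Of the 137 peaks, 19% were called. Of the 26 called peaks, complex IV held 11 (7 more and 4 less open), out of 28 tested peaks at its members. Some of these were joined by either end, and the share was given no test.

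For 86 members with a tested transcript and a tested peak, the most accessible peak was compared with the transcript as a description. Of the 45 members with a higher transcript, 7 had a more open and 4 a less open peak, and 34 had no call on the peak. Over all peaks within 1 kb of any start, 15.6% were more and 15.5% less open. Among members with no call on the transcript, 2 had a more open and 3 a less open peak, and 33 had no call. Among those with a lower transcript, 1 had a more open peak and 2 had no call. Ndufaf3 was more open at both of its peaks. The narrower one (chr9:108568061-108568311) stood at 4.67, 5.41, 2.67 and 3.83 CPM in EpiSC replicates 1, 4, 44 and 51 and 30.9, 36.2, 33.2 and 29.2 CPM in DE replicates 2, 4, 44 and 51. The groups were far apart, with a change of 2.90 ± 0.22 (edgeR adjusted p = 1.73e-09), and the start peak (chr9:108566922-108567597), which holds part of the sequence shown, changed by 0.55 ± 0.15 (edgeR adjusted p = 0.00275).

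At Atp5k, the peak over the start and the sequence shown (chr5:108434341-108434771) stood at 18.2, 15.7, 12.6 and 20.1 CPM in EpiSCs and 39.4, 35.6, 33.2 and 32.0 CPM in DE. It was more open in every DE library, by 1.05 ± 0.17 (edgeR adjusted p = 1.91e-05), while the transcript was lower in DE replicates 4, 44 and 51. At Sdhd the start peak (chr9:50603755-50604237) stood at 25.0, 25.0, 31.3 and 30.2 CPM and 19.7, 22.2, 18.6 and 21.7 CPM. It was less open in DE (-0.45 ± 0.16, edgeR adjusted p = 0.0206), while the transcript was higher.

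The largest gain in a members' peak was at Ndufaf6 (chr4:11074508-11074796), at 1.06, 3.99, 0.972 and 0.442 CPM in EpiSCs and 19.9, 18.7, 25.1 and 23.9 CPM in DE. The change was 3.56 ± 0.39 (edgeR adjusted p = 3.30e-07), and the Ndufaf6 transcript did not pass (0.24 ± 0.25). Ndufaf6 and the genes that follow up to Ndufa4l2 were joined by either end, so these peaks need not be promoters. Cox4i1 gained at chr8:120668205-120668370 (1.53 ± 0.29, edgeR adjusted p = 1.32e-04), and Cox4i2, the isoform known from lung, gained at chr2:152763695-152763952 (2.58 ± 0.36, edgeR adjusted p = 4.37e-06) with a transcript below 0.5 CPM. Ndufa4l2 lost at chr10:127510916-127511102 (-1.79 ± 0.32, edgeR adjusted p = 6.42e-05), with a higher transcript. Ndufa4, joined by its start, gained at all 3 of its peaks, by 2.44 ± 0.59, 1.17 ± 0.24 and 0.62 ± 0.23 (edgeR adjusted p = 0.00128, 3.22e-04 and 0.0230). The call on the last, its most accessible peak, was lost without EpiSC replicate 4 or 51 or DE replicate 2, 4 or 51.

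The mitochondrial genome is also cut in ATAC-seq, and its share of counts in peaks is given here. Whether that share reflects DNA that the nuclei preparation left or the amount of it per cell was not tested. That share was 9.32, 6.92, 13.6 and 6.99% in EpiSC replicates 1, 4, 44 and 51 and 5.58, 9.26, 4.39 and 8.71% in DE replicates 2, 4, 44 and 51, and the groups overlapped. The mitochondrial share of RNA had no overlap between B6 EpiSCs and DE. Whether the amount of mitochondrial DNA had a part in that was not tested. Of the 15 mitochondrial peaks in that table, the 5 between positions 7214 and 10054 held from 0 to 42 counts in any library, and the other 10 held at least 3616. The genes mt-Co2, mt-Atp8, mt-Atp6, mt-Co3, mt-Nd3 and mt-Nd4l lie in the stretch between the peaks with more counts.

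Among EpiSCs, the levels counted for mt-Co1 and mt-Co2 were lower in PWK than in B6, and those for several other mitochondrial members were higher. In PWK against B6, 5 of 13 mitochondrial members were higher and 3 lower, where 12% and 14.5% of the 14822 genes tested were. The summed level was 25464, 23441 and 26963 CPM in PWK BioRep695, BioRep698 and the unnumbered PWK library against 25938 to 30663 CPM in B6, with overlap. mt-Co1 stood at 4244, 4137 and 4066 CPM in PWK and 9555, 9470.2, 11254, 11371 and 9587 CPM in B6, and mt-Co2 at 159, 207 and 181 and 1730.4, 1021, 979, 1014 and 729 CPM. Both groups were far apart in each, with changes of -1.30 ± 0.08 (edgeR adjusted p = 1.40e-06) and -2.58 ± 0.25 (edgeR adjusted p = 4.70e-05). mt-Co3 had 0.27 ± 0.12 and did not pass (edgeR adjusted p = 0.110).

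The members that were higher in PWK were mt-Cytb (0.49 ± 0.09, edgeR adjusted p = 0.00233), mt-Nd4l (0.51 ± 0.11, edgeR adjusted p = 0.00583), mt-Nd3 (0.88 ± 0.23, edgeR adjusted p = 0.0159), mt-Nd4 (0.44 ± 0.12, edgeR adjusted p = 0.0229) and mt-Atp8 (0.29 ± 0.08, edgeR adjusted p = 0.0290). mt-Nd6 was lower (-1.24 ± 0.31, edgeR adjusted p = 0.0153), at 32.9, 20.6 and 28.7 CPM against 41.8, 73.8, 68.3, 98.4 and 41.6 CPM. The calls on mt-Nd3, mt-Nd4 and mt-Atp8 were lost without PWK BioRep695 or the unnumbered PWK library (edgeR adjusted p of up to 0.126), and that on mt-Nd6 without PWK BioRep698 or the unnumbered one (up to 0.0697). The count higher was 2 without PWK BioRep695 and 2 without the unnumbered PWK library. Feeder markers differed between EpiSC libraries, also within B6. Of 10 markers, 1 was called higher in PWK than in B6, where 12% of all genes were. In PWK against F1, 10 were called higher, where 20.7% of all genes were. In F1 against B6, 0 were called, where 2.84% of all genes were. The summed level of these markers was 2291 to 3215 CPM in PWK, 81.3 to 2835 CPM in B6, 158 to 242 CPM in F1 and 1565 CPM in DBA. Their part in the strain results was not tested.

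Nuclear copies of mitochondrial genes moved beside mt-Co1 and mt-Co2. Gm13340 stood at 2417, 2422 and 2422 CPM in the PWK libraries and Gm13341 at 1079.8, 1019.9 and 1134 CPM, while in B6 they stood at 2.51, 1.85, 3.01, 2.81 and 2.86 CPM and 0.275, 0.354, 0.430, 0.330 and 0.414 CPM. Gm29216 went the other way, at 0, 0.0732 and 0 CPM in PWK and 672, 393, 582, 599.5 and 472 CPM in B6. The summed copies took 8026 to 8996 CPM in PWK and 4078 to 6056 CPM in B6, without overlap. Members plus copies took 32437 to 34989 CPM and 30016 to 36432 CPM, with overlap. In ATAC-seq, the peak over most of mt-Co1 (MT:5212-6694) held 18533 and 22572 counts in the PWK libraries and 44513 to 64256 in B6. All mitochondrial peaks of that table together held 319032 and 353585 counts in PWK and 478298 to 680294 in B6. How reads of strain-specific sequence were split between members and copies was not tested, and the strain differences of single mitochondrial genes are uncertain to that extent.

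**Figure D5:**
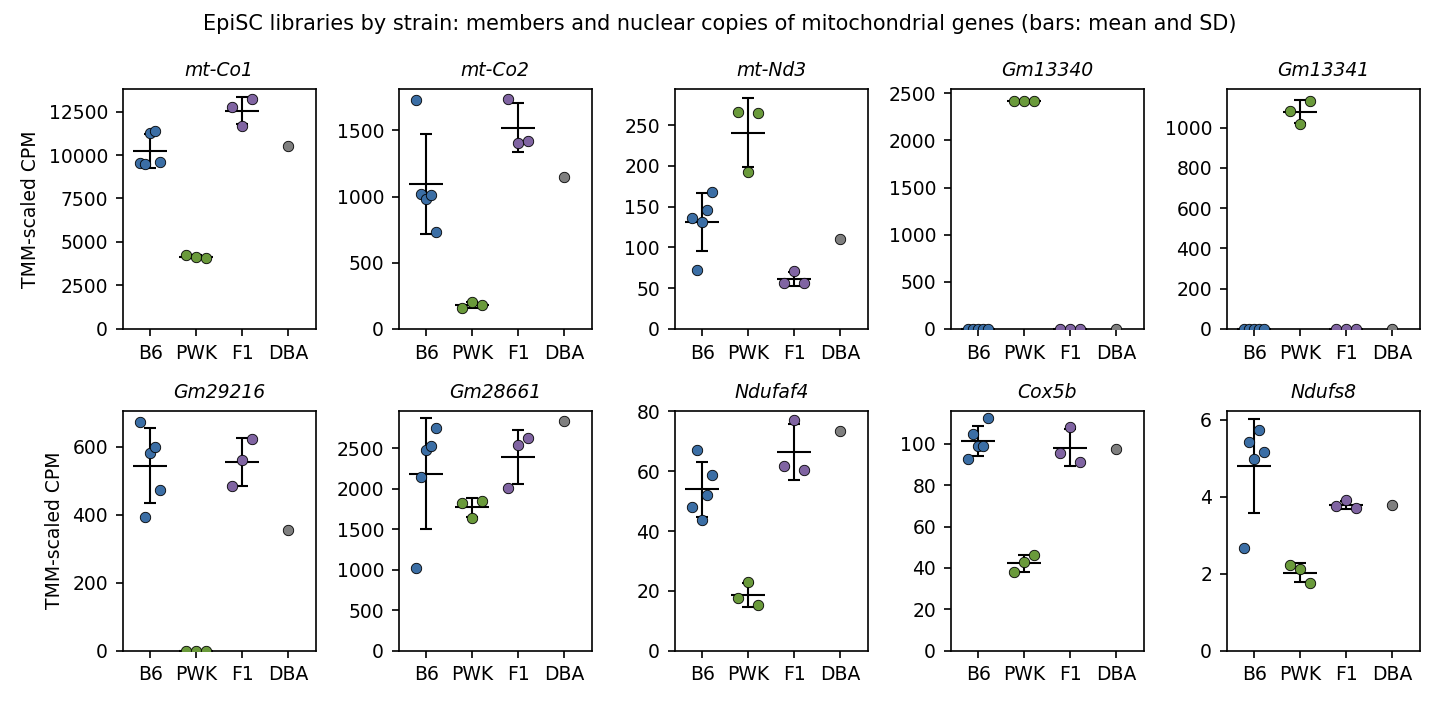
Level (TMM-scaled CPM, y axis from 0) in EpiSC libraries of B6, PWK, B6129F1 (F1) and DBA for 3 mitochondrial members, 4 nuclear copies of mitochondrial genes and 3 nuclear members, points being libraries and bars the mean and SD. The PWK libraries stand apart in mt-Co1, mt-Co2, Gm13340, Gm13341, Gm29216, Ndufaf4 and Cox5b, and the single DBA library has no error bar.

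Of 89 nuclear members tested, 3 were higher and 17 lower in PWK than in B6, with a median log2 change of -0.07. That is 22.5% of them, where 26.5% of all genes were called, so the count over both directions was not above the background. By direction the calls were uneven. Of the 89, 17 were lower, where 14.5% of all genes were, and 3 were higher, where 12% were. This unevenness was given no test. Without PWK BioRep695 the lower count was 11, where 8.74% of all genes were called lower, and the higher count was 1 without the unnumbered PWK library and 5 without B6 EpiSC replicate 51. The larger differences were in single genes. Ndufaf4, an early assembly factor whose promoter is shown above, stood at 17.5, 22.9 and 15.3 CPM in PWK and 48.1, 67.0, 43.6, 51.9 and 58.9 CPM in B6, a 2.89-fold lower level (-1.53 ± 0.17, edgeR adjusted p = 1.24e-04). Cox5b, a zinc-binding subunit of complex IV, stood at 38.1, 42.8 and 46.2 CPM in PWK and 92.8, 105, 98.9, 99.2 and 112 CPM in B6 (-1.26 ± 0.09, edgeR adjusted p = 5.51e-06). Ndufs8, an iron-sulfur core subunit listed at a low level, stood at 2.22, 2.12 and 1.75 and 2.67, 5.43, 4.98, 5.74 and 5.16 CPM (-1.24 ± 0.26, edgeR adjusted p = 0.00559). No PWK library overlapped the B6 libraries in these 3 genes, as was so for 32% of all genes.

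Smaller decreases were called in complex I for Ndufs5 (-0.88), Ndufc1 (-0.86), Ndufa12 (-0.74) and Ndufa7 (-0.68), in complex III for Uqcrc1 (-0.43) and in complex V for Atp5j2 (-0.63) and Atp5h (-0.26). Ndufaf2 changed by -0.81, Ndufaf6 by -0.67 and Cox5a by -0.25. Ndufa11 (0.63), Ndufb3 (0.38) and Ndufb8 (0.25) were higher. Omission of PWK BioRep695 ended the calls on Atp5h and Cox5a, omission of the unnumbered PWK library those on Ndufa11, Ndufb8 and Cox5a, and omission of PWK BioRep698 those on Ndufb8 and Cox5a. Complex II members differed by -0.06 (Sdhc) to 0.20 (Sdhd) and none was called by edgeR. Of 77 mitochondrial ribosomal proteins, 6 were higher and 21 lower in PWK, 35.1% of them, where 26.5% of all genes were called.

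In F1 EpiSCs against B6 EpiSCs few members were called. No nuclear member of 89 was called by edgeR, where 2.84% of all genes were (1.34% higher and 1.5% lower), although 15 had an unadjusted p under 0.05 (10 higher and 5 lower), and DESeq2 called 6 higher and 1 lower, where it called 13.5% of all genes (5.91% higher and 7.58% lower). Without B6 EpiSC replicate 1 edgeR called 10 higher, where 6.79% of all genes were called higher, and without B6 EpiSC replicate 2 it called 1 lower, where 2.71% were. The number of genes called over the whole table, 421, turned on single libraries: it was 1952 without B6 EpiSC replicate 1, 757 without B6 EpiSC replicate 2, 69 to 227 without B6 EpiSC replicate 4, 44 or 51, PWK BioRep695 or BioRep698 or F1 replicate 9, and 0 to 2 without F1 replicate 4, the unnumbered F1 or the unnumbered PWK library. mt-Nd3 was the only 1 of 13 mitochondrial members called, at 56.1, 71.1 and 56.9 CPM in F1 replicates 4, 9 and the unnumbered F1 library against 136, 72.0, 132, 146 and 168 CPM in B6 (-1.11 ± 0.24, edgeR adjusted p = 0.0420). All F1 values lay below the lowest B6 value, that of B6 EpiSC replicate 2, from which F1 replicate 9 was hardly apart. Groups did not overlap in 14.9% of all genes. Omission of B6 EpiSC replicate 4, 44 or 51, or of any PWK or F1 library, ended the call (edgeR adjusted p = 0.0633 to 0.186). Without B6 EpiSC replicate 1, edgeR called 3 mitochondrial members higher. Against F1, PWK had 4 nuclear members higher and 24 lower (7 and 17 with total library size) and 6 mitochondrial members higher and 2 lower, where 40% of all genes were called (20.7% higher and 19.4% lower). The mitochondrial count higher was 2 without PWK BioRep695, without the unnumbered PWK library or without the unnumbered F1 library, and 1 without F1 replicate 4. PWK is in both comparisons, so they are not independent. mt-Co1 was -1.58 ± 0.09 and mt-Co2 -3.04 ± 0.27 in PWK against F1 (edgeR adjusted p = 6.63e-07 and 2.53e-05), Ndufaf4 -1.82 ± 0.19 (edgeR adjusted p = 6.54e-05) and Cox5b -1.19 ± 0.10 (edgeR adjusted p = 1.63e-05).

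The DBA library had no replicate and was given no test. Its mitochondrial sum was 34916 CPM, above every B6, PWK and F1 library, and its nuclear sum was 8835 CPM, between the PWK and F1 libraries. mt-Co1 stood at 10502 CPM and mt-Co2 at 1151 CPM, both within the range of B6. mt-Nd1 stood at 4073 CPM and mt-Nd4 at 3469.9 CPM, above every other EpiSC library. Ndufaf4 stood at 73.4 CPM and Cox5b at 97.5 CPM, both far above PWK, and Ndufa12 at 43.6 CPM, below every B6 library. In ATAC-seq the mitochondrial share was 9.36, 7.11, 13.5 and 7.07% in the B6 libraries, 5.60 and 4.22% in PWK BioRep698 and the unnumbered PWK library and 8.52% in DBA, counted over the peaks of the EpiSC table.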

How the data were processed

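The study deposited counts of reads per gene (RNA-seq) and counts of reads per peak (ATAC-seq), whole numbers with no scaling, which were used as deposited. The submitters' processing notes name Salmon, featureCounts and DESeq2 for RNA-seq, fastp, Bowtie2, MACS2, featureCounts and DESeq2 for ATAC-seq, and the build mm10. Which tool gave the gene counts, the annotation and the use of strand are not given in the sources used here. Shares of reads between near-identical or overlapping genes depend on that step.

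Columns were matched to samples by name, except 3 (1 PWK and 1 F1 RNA column and 1 PWK ATAC column) whose names give the group but no labelled replicate, and which are called unnumbered. Of 30 samples 27 were used. The 3 PWK DE samples were not analysed here, and 17 columns of the EpiSC peak table that match no sample were not used. The values of 1 member are not reported here. No 2 libraries of a group agreed within sampling noise.

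Genes were tested with edgeR 4.0.16 in R 4.3.3 (filterByExpr, TMM factors, robust quasi-likelihood F test), with Benjamini-Hochberg adjustment over all genes tested and a threshold of 0.05. The DE comparison used the 5 B6 EpiSC and 4 DE libraries, and the strain comparisons used the 5 B6, 3 PWK and 3 F1 EpiSC libraries in 1 fit. Peaks were tested in the same way in 8 libraries. CPM were scaled by TMM over all 16 RNA libraries, and each ± after a log2 change is its standard error. Total counts ran from 22829536 to 66563933 (RNA) and from 3751526 to 9571127 (ATAC). The steps were tested on simulated data with 200 changed genes or peaks. The DE fit recovered 23.5% of 2-fold and 67.7% of 4-fold changes, and 3.3% of its calls were wrong. The strain fits recovered 51.1% to 60% and 78.5% to 82.1%. The peak fit, run on a subset of peaks, recovered 28.6% and 87%, with 6.19% of calls wrong. A gene or peak that was not called was thus not shown to be unchanged.

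The members and lists were chosen with earlier results of these data known. All mitochondrial members, isoform pairs and Sdh genes are named, and, per comparison and class, the 2 called members that changed most up and the 2 that changed most down, given a mean log2 CPM of at least 3 and no overlap. The other genes were chosen after their values were seen, as were all peaks but the one with the highest mean count at each named member. Alternatives were RLE or total library size scaling, scaling without mitochondrial genes, DESeq2 1.42.0, other filters on low counts (none, or at least 10 counts in every library), counts summed with named pseudogenes, a window of 5 kb, a replicate block and the omission of each library. Added after seeing the data were the sums with nuclear copies and the omission of DE replicate 2 with EpiSC replicate 1.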

Additional observations from a re-analysis of the deposited data

Results flagged for a closer look

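In 15 of the 86 groups of 4 or 5 libraries checked, 1 library lay far from the rest of its group by Dixon's test. Chance picks about 1 group in 20. Some genes checked were chosen after their values were seen, and the groups share libraries, so the count cannot be set against that rate. DE replicate 2 was the one furthest up in 8 of the 15. Its summed level was 6407 CPM for nuclear complex I (the next DE library had 3208 CPM) and 9773 CPM for complex V (next 6229.7 CPM). It also stood highest in Uqcrfs1 (374 CPM, next 207 CPM), Uqcrh (176 CPM, next 70.0 CPM), Cox7a1 (15.4 CPM, next 5.11 CPM), Cox7a2 (67.9 CPM, next 23.6 CPM), Atp5d (587 CPM, next 272 CPM) and Atp5k (60.1 CPM, next 21.2 CPM). In mt-Nd5 it was the lowest DE library (516 CPM, next 599 CPM). DE replicate 51 was the highest in mt-Nd4 (774 CPM, next 599 CPM).

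Among B6 EpiSC libraries, replicate 1 was the lowest in Ndufs7 (23.0 CPM, next 37.1 CPM), Ndufs4 (17.3 CPM, next 22.5 CPM) and Atp5d (79.2 CPM, next 127 CPM) and the highest in Cox5a (100.04 CPM, next 86.9 CPM). Replicate 51 was the highest in mt-Cytb (3874 CPM, next 3308 CPM). The feeder markers were lowest in replicate 1 and highest in replicate 51 of the B6 EpiSC libraries, and their part in these values was not tested.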

How the results depend on the processing

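Of the counts and shares compared, 326 values under an alternative stayed within 1.5 times the reported count or 1 SD of the reported value, and 64 did not. Single genes and peaks kept their direction and side of the threshold in 4984 values, lost the call in 191, gained one in 103, changed sign with no call on either side in 244 and changed sign with a call in 6. Counts by complex stayed within 1.5 times in 1451 values and did not in 149. The 6 were Ndufa1, Ndufa13 and Cox5b without DE replicate 2 and without both DE replicate 2 and EpiSC replicate 1 (-0.58, -0.96 and -0.35). With 1 library left out, Ndufa1 ran from -0.57 to 0.37, Ndufa13 from -0.84 to 0.31 and Cox5b from -0.31 to 0.50. The cause was not tested.

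In DE against EpiSC, nuclear members called lower numbered 5 with no filter and 13 without both DE replicate 2 and EpiSC replicate 1. With 1 library left out, nuclear members numbered 41 to 54 higher and 2 to 13 lower, and mitochondrial members 0 to 1 higher and 10 to 12 lower. The mitochondrial count called higher was 0 without both libraries and 0 where at least 2-fold was asked, mt-Nd6 being lost. With at least 2-fold asked, 45.3% of all genes tested were called, 2973 higher and 3403 lower. Peaks numbered 11 more and 29 less open with total library size and 26 and 26 with a window of 5 kb, and 12 to 17 and 8 to 22 with 1 library left out.

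In PWK against B6, asking for at least 2-fold left 0 nuclear members higher and 3 lower and 0 mitochondrial members higher, in fits where edgeR called 3, 17 and 5. At that cut 10.7% of the 14822 genes tested were called, 890 higher and 694 lower. With 1 library left out, the counts were 1 to 5 and 11 to 20 (nuclear) and 2 to 7 and 2 to 3 (mitochondrial). In F1 against B6, DESeq2 called 6 nuclear members higher and 1 lower and 2 mitochondrial members higher, and a minimum of 10 counts gave 1 nuclear member higher. The mitochondrial count lower was 0 with no filter and 0 with only the groups compared, mt-Nd3 being lost. With 1 library left out, the counts were 0 to 10 and 0 to 1 (nuclear) and 0 to 3 and 0 to 1 (mitochondrial). In PWK against F1, nuclear members higher numbered 7 with total library size and 7 with only the groups compared. At least 2-fold left 0 nuclear members higher, 2 lower and 1 mitochondrial member higher, where 19.1% of all genes were called (1964 higher and 861 lower). With no filter 3 mitochondrial members were higher, where 13.9% of all genes were. With 1 library left out, mitochondrial members higher numbered 1 to 6.

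With the nuclear copies of the mitochondrial genome added, the mitochondrial share of RNA counts was 3.38% in B6 EpiSC, 1.12% in DE, 3.56% in PWK and 3.76% in F1. The summed level of nuclear members in PWK was 8936 CPM on total counts.

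The labels of same-numbered EpiSC and DE libraries share only a number and state no pairing. Deviations of these libraries from the group means correlated at 0.096, 0.088, 0.182 and 0.237 (RNA, replicates 2, 4, 44 and 51), not above 0.1 in every pair. In ATAC the values were 0.021, -0.005 and 0.048 (replicates 4, 44 and 51). Each RNA library correlated best with its own number, a hint from the data and not the design. With the replicate block, 35 nuclear members were called higher and 3 lower, against 41 and 2 for the same libraries with no replicate block. Mitochondrial members numbered 0 higher and 10 lower under the replicate block and 0 and 10 in the same libraries without it. Peaks numbered 10 more and 8 less open with the replicate block and 11 and 10 in the same libraries without it.

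Low levels limit what can be said of the 7 members that were not tested and of Ndufa4, Ndufa4l2, Cox6c2 and Ndufs8. Why Ndufa4 and Ndufs8 were listed far below other subunits of their complexes was not tested.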

Other observations

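The ratio of summed nuclear to summed mitochondrial transcripts was 0.32, 0.37 and 0.32 in PWK BioRep695, BioRep698 and the unnumbered library, 0.30, 0.30 and 0.29 in F1 replicates 4, 9 and the unnumbered library and 0.25 in the DBA library, all far below the 1.30 to 2.15 of DE. The mitochondrial share of RNA counts was 2.67%, 2.49% and 2.83% in PWK, 3.03%, 3.21% and 3.25% in F1 and 3.49% in DBA.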
